A study of Mus musculus with 11 samples.

Results

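The genes described here let retinal neurons make, package and take up inhibitory transmitters, acetylcholine or dopamine. They are Gad1, Gad2, Slc32a1, Slc6a11, Slc6a9, Chat, Slc18a3, Slc5a7 and Th, 9 of the 25311 genes in a single-cell table of the mouse retina, and they were chosen by their known roles, with earlier results of these data known. All 9 had a row in the table. Retinas were taken at postnatal day 10 (P10) from 11 mice of the C57BL/6J strain. The 3 control mice had received PBS, and the 3 Phase I ROP mice, their littermates, had received streptozotocin (STZ), which raises blood glucose and delays the growth of retinal vessels. A further 2 STZ mice nursed by dams on a diet rich in ω-3 long-chain polyunsaturated fatty acids (LCPUFA), and 3 STZ mice nursed by dams on a diet rich in ω-6 LCPUFA, were littermates of each other. The STZ injection was thus shared by both diet groups. Each mouse gave 1 inDrop library, in which a cell's RNA molecules are counted by unique molecular identifiers (UMIs).

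In the mature retina most inhibitory neurons are amacrine cells, which release GABA or glycine onto bipolar, ganglion and other amacrine cells. GABA is made by the glutamate decarboxylases encoded by Gad1 (GAD67) and Gad2 (GAD65). GABA and glycine are loaded into vesicles by the same transporter, encoded by Slc32a1 (VGAT), and are taken up again by membrane transporters, of which Slc6a11 encodes the GABA transporter GAT3 and Slc6a9 the glycine transporter GlyT1. Starburst amacrine cells, which serve direction selectivity, release both GABA and acetylcholine. They use choline acetyltransferase (Chat), the vesicular acetylcholine transporter (Slc18a3) and the high-affinity choline transporter (Slc5a7). Tyrosine hydroxylase (Th) is the rate-limiting enzyme of dopamine synthesis, and marks a sparse amacrine type.

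After filtering, 20033 of 20067 cells remained, with 2565570 to 6517780 UMIs per library and a median of 1003.5 to 2341 UMIs per cell. Cells were clustered without the 9 genes and without the other transmitter genes, and clusters were named from marker lists, so that each class name means cells that resemble the class. Amacrine cells numbered 3079, from 187 to 363 per mouse, and were divided into 11 subtypes and 27 other cells. A subtype is called by 1 or 2 genes, which are among its 10 leading genes except for Slc17a8 and Car2, other than the starburst-like cells, in which the starburst markers Sox2, Megf10, Megf11 and Isl1 stood at 425, 430.4, 542 and 1594 CPM (UMIs of a gene per 1000000 UMIs of the class). The control libraries stood apart from all 8 STZ libraries in RNAs that can differ with handling or preparation. Fosb, an immediate early gene, lay at 0.39 to 0.89 CPM in controls and 116 to 231 CPM in STZ mice. The nuclear RNA Rn7sk lay at 193 to 290 against 1.15 to 16.2 CPM. The sample labels name no preparation batch. Where Phase I ROP is set against control, STZ therefore cannot be told apart from any difference in handling or preparation. Of 18872 distinct cell barcodes, 1157 occurred in more than 1 library.

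The cholinergic genes sit at 2 places in the genome, and stretches upstream of them and of both glutamate decarboxylase genes are given because their products either coincided in 1 cell type or parted between types. Slc18a3 (chr14:32462438-32464850, minus strand, GENCODE M21 on GRCm38) lies inside Chat (chr14:32408203-32465989, minus strand). It overlapped none of the exons of the 8 annotated Chat transcripts and is thus intronic to Chat. Slc5a7 lies apart at chr17:54273590-54299034 on the minus strand. Gad1 (chr2:70553072-70602014) and Gad2 (chr2:22622205-22693874) are both on the plus strand of chromosome 2. The stretches below come from RefSeq promoter windows on GRCm38.p6, with annotated exons left out, and are written 5′ to 3′ on the gene's strand. They span chr14:32465990-32466159 for Chat, chr14:32464851-32465041 for Slc18a3, chr17:54299035-54299284 for Slc5a7, chr2:70561879-70562041 for Gad1 and chr2:22622077-22622204 for Gad2. Capitals mark matches to CAGCTG (an E-box), TATAAA or CCAAT on either strand.
Chat: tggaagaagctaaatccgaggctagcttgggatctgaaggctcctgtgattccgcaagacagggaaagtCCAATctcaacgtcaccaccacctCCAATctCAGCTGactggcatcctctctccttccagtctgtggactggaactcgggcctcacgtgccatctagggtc
Slc18a3: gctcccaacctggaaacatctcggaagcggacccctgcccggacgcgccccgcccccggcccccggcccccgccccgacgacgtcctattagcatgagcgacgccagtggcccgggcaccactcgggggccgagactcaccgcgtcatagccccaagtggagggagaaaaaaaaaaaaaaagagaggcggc
Slc5a7: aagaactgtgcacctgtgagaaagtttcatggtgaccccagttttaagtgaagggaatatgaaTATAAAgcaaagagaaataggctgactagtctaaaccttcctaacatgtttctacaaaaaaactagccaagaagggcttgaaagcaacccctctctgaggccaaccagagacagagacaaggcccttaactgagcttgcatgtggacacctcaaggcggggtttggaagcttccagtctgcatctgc
Gad1: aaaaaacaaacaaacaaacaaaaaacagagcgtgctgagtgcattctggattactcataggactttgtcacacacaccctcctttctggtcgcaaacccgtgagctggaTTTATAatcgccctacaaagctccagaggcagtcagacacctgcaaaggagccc
Gad2: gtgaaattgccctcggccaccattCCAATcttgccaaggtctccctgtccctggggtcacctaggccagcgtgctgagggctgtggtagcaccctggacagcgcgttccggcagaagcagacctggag
The Chat stretch held 1 E-box and 2 CCAAT matches, Slc5a7 and Gad1 each 1 TATAAA match, Gad2 1 CCAAT match, and Slc18a3 no match to these letters. Among all 32851 mouse promoter windows of 250 bases, 4271 held CAGCTG, 4063 TATAAA (12.4%) and 11120 CCAAT (33.8%), so each of these matches is common.

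Levels are given as CPM within a class, over UMIs pooled from all mice, and are compared for 1 gene across classes. They are a description with no test, since the classes come from the same cells. Gad1 was high in 7 of the 11 amacrine subtypes. Its level was 2672 CPM in the Pou3f3 Pantr1 subtype, followed by Cartpt Slc35d3 (1774), starburst-like (1588), Tfap2e Tshr (1537), Maf Chrna2 (1439), Cbln4 Tac1 (1254) and Slit2 Bhlhe22 cells (1149). The values of single mice overlapped between every pair of neighbours in this order. The next subtype, Htr2c Gbx2, was at 319 CPM, and Gad1 was at 56.3 CPM in Mafa Slc17a8, 31.6 in Ebf3 and 4.63 in Gjd2 Car2 cells, the last close to the 5.39 CPM seen in rods.

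Gad2, the other glutamate decarboxylase gene, followed another order. It stood at 631 CPM in Maf Chrna2 cells, in which single mice ranged from 495 to 948 CPM, and at 270.3 CPM in Cbln4 Tac1 cells. The Pou3f3 Pantr1 and Slit2 Bhlhe22 cells had 179.9 and 177 CPM, and the Ebf3 cells 100.1 CPM, with Tfap2e Tshr cells next to them (101 UMIs in 158 cells). In starburst-like cells Gad2 was all but missing: 2 UMIs in 127 cells (1.96 CPM), beside 1623 UMIs of Gad1 in the same cells. UMIs of both genes met in 141 of 169 Maf Chrna2 cells. Over all amacrine cells 1331 had a UMI of Gad1, 780 of Gad2 and 561 of both, which was 71.9% of the Gad2 cells, where the product of the shares gives 337 cells. Ebf3 cells were the reverse of the starburst-like cells, with Gad2 UMIs in 106 of 880 cells and Gad1 UMIs in 2.61%. Mafa Slc17a8 cells were like them, with Gad2 UMIs in 13.7% and Gad1 UMIs in 3.62% of cells. In Gjd2 Car2 cells the shares were 6.34% for Gad2 and 1.12% for Gad1. In rods, which are not known to make GABA, the shares were 0.572% for Gad1 and 0.726% for Gad2. The median depth was 1055 UMIs in rods and 2187 UMIs in Ebf3 cells. UMIs of free RNA can enter any droplet, and a share at the level in rods is read here as background.

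Slc32a1, the vesicular transporter that GABA and glycine cells share, was the most even member. All 11 amacrine subtypes lay between 208 CPM (Ebf3) and 420.1 CPM (Maf Chrna2), and single mice overlapped between every pair of neighbours. Outside amacrine cells it reached 255 CPM in the horizontal-like cells, where 83.9% of 31 cells had a UMI, and it was at 2.42 CPM in rods. The same horizontal-like cells held Gad1 UMIs in 6.45% of cells and no Gad2 UMI, a count of 0 that allows a share of up to 9.68%. These 31 cells came from 10 of the 11 mice.

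Slc6a11, the GABA transporter GAT3, was the member least tied to amacrine cells. Only 47.4% of its 3000 UMIs lay in them, against 95.7% for Gad1. Müller glia held 21.1% and the 47 astrocyte-like cells 10.1%. By level, astrocyte-like cells came first (1086 CPM, with a UMI in 87.2% of cells), then the Tfap2e Tshr amacrine subtype (591 CPM, 86.1% of cells), and these overlapped between mice. Müller glia followed at 158 CPM, with no mouse as high as the lowest Tfap2e Tshr sample, and then 4 amacrine subtypes, ganglion cells and Grik1 bipolar cells between 110.5 and 136 CPM, which overlapped between neighbours. Grik1 bipolar cells (118 CPM, 16.7% of cells) stood above Trpm1 bipolar cells (21.9 CPM, 4.2% of cells), which correspond to OFF and ON types by these markers. Of the 581 amacrine cells with a Slc6a11 UMI, 538 also had one of Gad1.

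The glycine transporter gene Slc6a9 ran opposite to Gad1. It was at 1212 CPM in Gjd2 Car2 cells, in which 94.0% of cells had a UMI and single mice ranged from 562 to 1654 CPM. Mafa Slc17a8 (408 CPM, up to 527) and Ebf3 cells (287 CPM, up to 714) came next, of which only Ebf3 overlapped with Gjd2 Car2 cells between mice, and the Gad1-rich subtypes lay between 2.93 (starburst-like) and 39.1 CPM (Slit2 Bhlhe22). UMIs of Gad1 and Slc6a9 met in 123 amacrine cells, where the product of their shares gives 393. Slc6a9 was also the member with most signal in photoreceptors, with a UMI in 7.34% of rods and 14.7% of cones. The count cannot be assigned to Slc6a9 with certainty. Its 3′ part shares 1429 exonic bases with Ccdc24, a gene on the opposite strand (chr4:117866524-117872557), and 897 of the 908 amacrine cells with a Slc6a9 UMI also had one of Ccdc24, in 763 of them the same number. The ratio of Ccdc24 to Slc6a9 UMIs was 1.08 in amacrine cells, 1.51 in rods and 1.72 in cones. Whether strand was used in counting is not given in the sources used here.

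**Figure D1:**
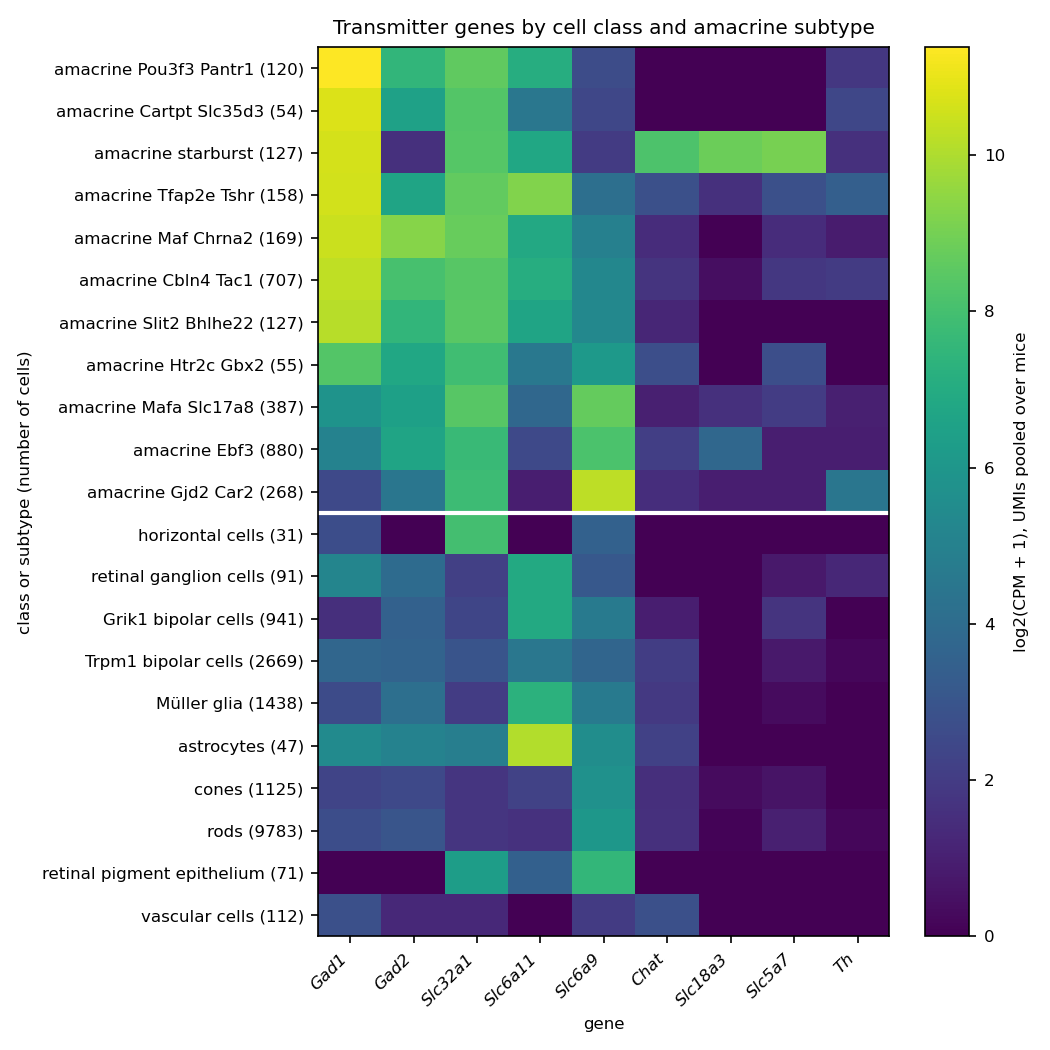
Level of each gene (columns) in amacrine subtypes, above the white line, and in other classes, below it (rows, with the number of cells), as log2(CPM + 1) over UMIs pooled from all 11 mice. Chat, Slc18a3 and Slc5a7 stand out in the starburst-like row (292, 447 and 526 CPM), Slc6a9 in the Gjd2 Car2 row (1212 CPM), and Slc32a1 is even over all amacrine subtypes (208 to 420.1 CPM).

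The 3 cholinergic genes marked 1 subtype. In the 127 starburst-like cells Chat was at 292 CPM, Slc18a3 at 447 and Slc5a7 at 526, and in every other class of any mouse the levels lay below those of the lowest starburst-like sample. Starburst-like cells held 73.4% of all Chat UMIs, 92.7% of Slc18a3 and 91.5% of Slc5a7. All 3 genes were seen together in 69 of the 127 cells, 2 in 39, 1 in 12 and none in 7. These cells were also GABAergic in the sense of carrying Gad1 (97.6% of cells) and Slc32a1 (83.5%), whereas Slc6a9 was at 2.93 CPM.

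A second, faint site of Slc18a3 was the Ebf3 subtype (12.9 CPM). Its UMIs came from 1 of the 2 Ebf3 sub-clusters, in which 20 of 489 cells from 7 mice had 27 UMIs, a share of 4.09%. In the other sub-cluster 0 of 391 cells had one, which allows up to 0.767%, and in rods the share was 0.010%. None of those 20 cells had a UMI of Chat, Slc5a7 or Gad1, 2 had Slc6a9 and 5 had Slc32a1. The split into sub-clusters did not use Slc18a3.

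Th was rare, with 56 UMIs over all cells. The Gjd2 Car2 subtype held 23 of them (21.3 CPM, 6.34% of cells) and the Tfap2e Tshr subtype 10 (9.90 CPM, 3.80% of cells). The share in rods was 0.020%. No cluster was set apart as dopaminergic.

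Patterns across classes were compared with those of 14132 genes over the 19 classes and subtypes with at least 50 cells, by Pearson's correlation of log2(CPM + 1), given without a test because all classes come from the same libraries. Slc18a3 was most like Gm2990 (0.980), which is antisense to the start of Chat, then Rprml (0.886) and Slc5a7 (0.862). Chat was most like Slc5a7 (0.881), Rprml (0.866) and Gm2990 (0.865), and Slc5a7 like Gm2990 (0.913), Htr2b (0.910) and Pde11a (0.908). Slc6a9 was most like Ccdc24 (0.987), ahead of Smg8 (0.757) and Krt24 (0.754). Exons of Slc6a9 and Ccdc24 overlap and their counts may hold the same UMIs, so this likeness is no separate result. For the GABA genes the nearest were Kcnip1, Vamp4 and Apc for Gad1 (0.909, 0.908 and 0.881), Frmd5, Efnb3 and Pnmal2 for Gad2 (0.943, 0.919 and 0.891), and Cacng3, Tmx4 and Gabra3 for Slc32a1 (0.921, 0.917 and 0.898). Slc6a11 was nearest to Pde9a, Gpc1 and Sorcs2 (0.844, 0.799 and 0.788) and Th to Gm16277, Galnt17 and Lnp1 (0.822, 0.814 and 0.811).

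To examine what Phase I ROP did to these genes within amacrine cells, UMIs were summed per mouse and Phase I ROP was compared with control by edgeR's quasi-likelihood test across all genes, with Benjamini-Hochberg adjustment. Values beside a fold change are normalised CPM, scaled over the genes tested in that class and comparable between the mice of 1 comparison only. Of the 8 members tested, Gad1, Gad2, Slc32a1 and Slc6a9 were higher in Phase I ROP and Chat was lower, each at an adjusted p under 0.05. The same threshold called 39.2% of all 11015 genes tested in amacrine cells (18.3% higher, 20.8% lower), and the median log2 fold change was 0.42 over the members and 0.02 over all genes. Th, with 11 UMIs in controls and 14 in Phase I ROP, was too low to test.

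Slc32a1 was at 193, 226 and 206 normalised CPM in controls 1 to 3, and at 311, 332 and 368 in Phase I ROP 1 to 3. Every Phase I ROP mouse lay above every control mouse, and the log2 fold change was 0.69 (95% interval 0.41 to 0.98, adjusted p = 0.0010). Gad2 was at 156, 152 and 168 in controls and 243, 221 and 235 in Phase I ROP. Here too the groups did not overlap, and the log2 fold change was 0.55 (0.26 to 0.84, adjusted p = 0.0052). Groups that do not overlap were seen for 50.2% of all genes tested in amacrine cells.

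Gad1, the more abundant decarboxylase transcript, changed less clearly. Its controls were at 751, 832 and 779 normalised CPM and its Phase I ROP mice at 831, 1131 and 1099.7. The lowest Phase I ROP mouse lay within the control range, and the log2 fold change was 0.37 (0.08 to 0.67, adjusted p = 0.042). In plain CPM the groups were apart, at 654 to 704 and 878 to 1252. The call was lost without any 1 mouse other than Phase I ROP 1, with log2 fold changes of 0.30 to 0.40 and adjusted p of 0.056 to 0.15.

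Slc6a9 had the largest increase of the members. Controls were at 153, 147 and 126 normalised CPM and Phase I ROP mice at 312, 314 and 207. The groups did not overlap, with a log2 fold change of 0.96 (0.59 to 1.33, adjusted p = 0.00062). Ccdc24, whose exons overlap with it on the other strand, rose as well (log2 fold change 1.05, adjusted p = 0.00025). Since both counts may hold the same UMIs, this rise is no separate result. Slc6a11 was at 80.2, 64.8 and 92.9 in controls and 104, 123 and 102 in Phase I ROP. Its groups did not overlap either, yet the change of 0.47 missed the threshold (0.07 to 0.87, adjusted p = 0.059), which it passed without control 3 (0.59, adjusted p = 0.038).

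**Figure D2:**
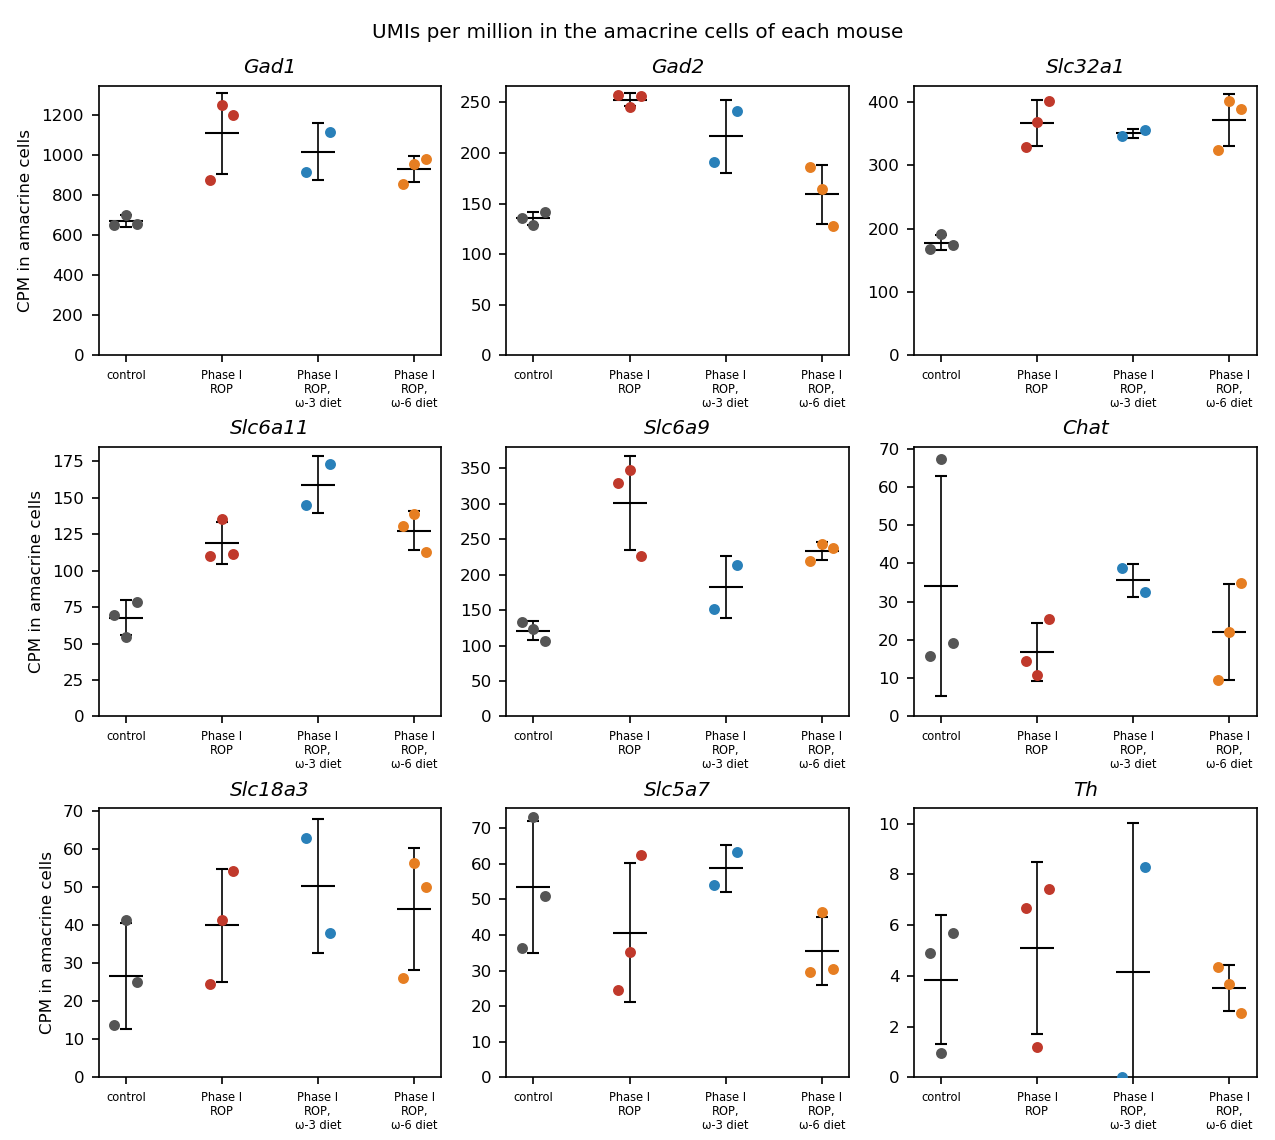
Each panel plots 1 gene in amacrine cells as plain CPM (linear axis from 0), with a point per mouse, a dash at the group mean and error bars of 1 SD. For Slc32a1 the control mice (168 to 191 CPM) lie below the Phase I ROP mice (329 to 402 CPM), as they do for Gad1, Gad2, Slc6a9 and Slc6a11. By normalised CPM 50.2% of all genes tested had no overlap between these groups. For Chat 1 control mouse (67.3 CPM) stands above all other mice (9.59 to 38.7 CPM).

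The fall of Chat rested on 1 mouse. Controls were at 18.1, 79.6 and 22.9 normalised CPM and Phase I ROP mice at 13.7, 9.85 and 23.3. Control 2 was far above the rest and the other controls lay within or next to the Phase I ROP range. The log2 fold change was -1.35 (-2.43 to -0.28, adjusted p = 0.044), and without control 2 it was -0.38 (adjusted p = 0.52). The call was also lost without Phase I ROP 1 (-1.27, adjusted p = 0.12) or Phase I ROP 2 (-1.12, adjusted p = 0.17), and with the replicate number as a block (adjusted p = 0.072). Slc5a7, at 41.8, 86.4 and 60.6 in controls and 23.1, 31.7 and 57.2 in Phase I ROP, did not pass the test (log2 fold change -0.74, adjusted p = 0.084), but it did without control 1 (-0.98, adjusted p = 0.031) or Phase I ROP 3 (-1.18, adjusted p = 0.021), and with the replicate block (-0.77, adjusted p = 0.044). Slc18a3 overlapped between groups (15.8, 48.9 and 29.6 against 23.1, 37.2 and 49.5, log2 fold change 0.22, adjusted p = 0.66). A level summed over all amacrine cells cannot tell fewer cells of 1 subtype from less RNA per cell. Starburst-like cells numbered 4, 14 and 10 in controls 1 to 3, and 7, 15 and 18 in Phase I ROP 1 to 3. The part of cell number in the values of Chat was not tested.

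The cholinergic genes were also described within starburst-like cells, without a test. The cells numbered 4 to 18 per mouse, under the minimum of 10 in every mouse set for a test, so the levels are a description in plain CPM. Slc18a3 was at 284, 261 and 246 CPM in controls, 455, 550.4 and 533 in Phase I ROP, 533 and 457 with the ω-3 diet, and 375, 574 and 606 with the ω-6 diet. All 3 controls lay below all 8 STZ mice, as they did for 7.13% of the 2006 genes at 100 CPM or more in these cells. Chat was at 244, 409.9 and 159.8 in controls, 228, 142 and 251 in Phase I ROP, 309 and 383 with ω-3, and 130.4, 231 and 495 with ω-6. Controls overlapped with each of the STZ groups. The Phase I ROP mice lay below both ω-3 mice, an order for which the share of all genes was not computed. Slc5a7 was at 710.4, 459.5 and 529 in controls, 352, 479 and 596 in Phase I ROP, 472 and 756 with ω-3, and 505, 501 and 445 with ω-6. For this gene every pair of groups overlapped. Gad1, the GABA enzyme of these cells, was at 1441, 931 and 934 in controls and 1325, 2113 and 2278 in Phase I ROP, with 1 control inside the Phase I ROP range. Slc32a1 was at 264, 261 and 221 in controls and 476, 284 and 397 in Phase I ROP, with no overlap, and 16.1% of these genes had every Phase I ROP mouse above every control.

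**Figure D3:**
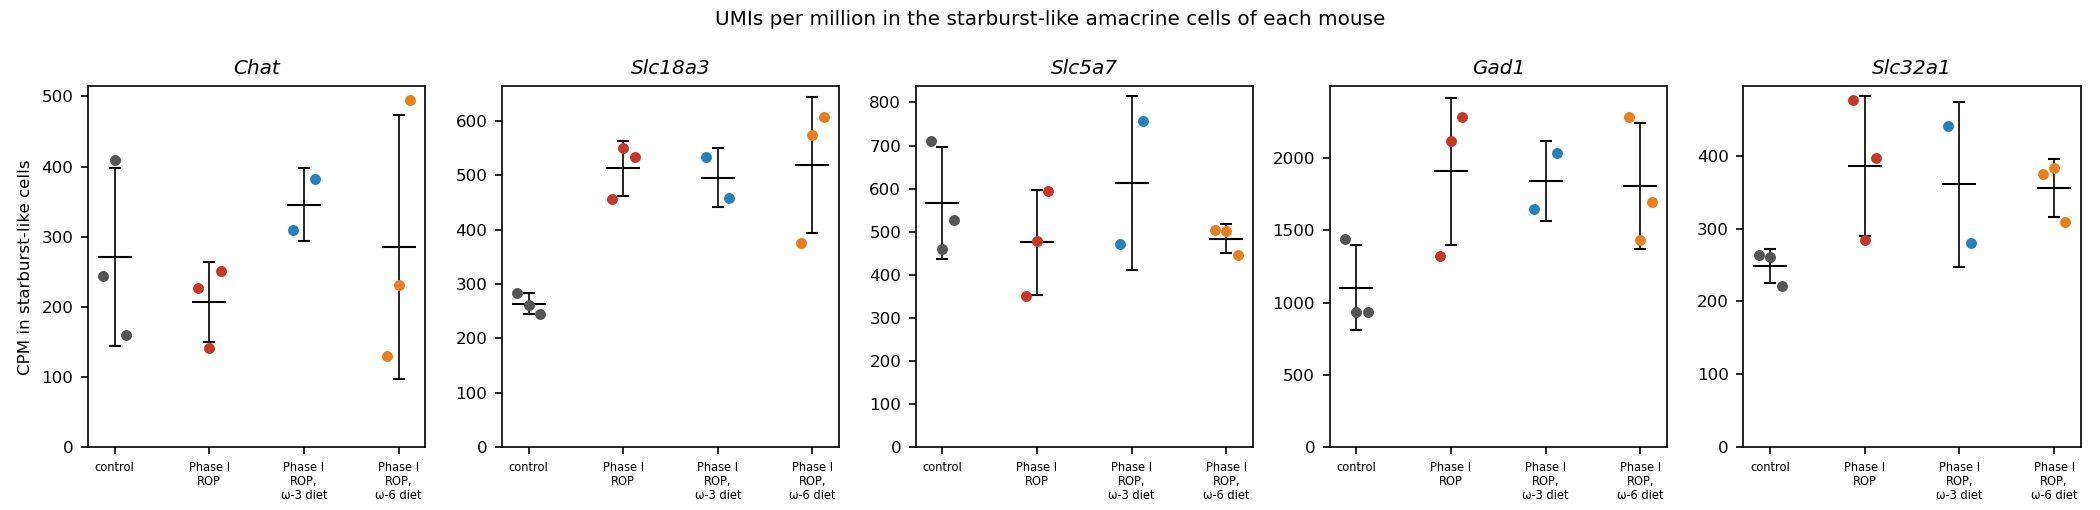
Plain CPM (linear axes from 0) of the 3 cholinergic genes and of Gad1 and Slc32a1 in the starburst-like cells of each mouse (points), with a dash at the group mean and error bars of 1 SD. Slc18a3 is the cholinergic gene whose controls (246 to 284 CPM) lie below every STZ mouse (375 to 606 CPM), while Chat and Slc5a7 overlap between controls and STZ mice.

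Several values moved together with these changes in amacrine cells. The summed level of the 9 rod markers was 346 to 369 CPM in controls and 428 to 523 CPM in Phase I ROP, with none of the 9 at 0. That of the dissociation response list of 30 genes was 2905 to 3399 CPM in controls and 5089 to 6093 CPM in Phase I ROP, and 17 of the 20 tested rose and 2 fell. The 8 amacrine markers themselves summed to 2193 to 2696 CPM in controls and 3349 to 4180 CPM in Phase I ROP, with 4 higher and 1 lower. The mix of subtypes moved too. Ebf3 cells, low in Gad1 and lowest of the subtypes in Slc32a1, were 26.4% of amacrine cells in Phase I ROP and 38.0% in controls. Mafa Slc17a8 cells, also low in Gad1, were 14.3% and 5.72%. The part of free rod RNA, of handling, of amacrine RNA content and of the subtype mix in the changes was not tested.

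In each amacrine subtype with at least 10 cells in every mouse, the same test asked whether a change was seen within a subtype or only over the mixture. It was made in 6 subtypes for Phase I ROP vs. control, and 10 of the 16 member results passed, all of them higher in Phase I ROP. Slc32a1 rose in 4 subtypes: Cbln4 Tac1 (183, 321 and 288 against 406, 408 and 529.6 normalised CPM, log2 fold change 0.78, adjusted p = 0.015), Ebf3 (0.99, adjusted p = 0.011), Gjd2 Car2 (1.16, adjusted p = 0.033) and Mafa Slc17a8 cells (1.55, adjusted p = 0.013). In all 4 every Phase I ROP mouse was above every control. The filter on low counts can be passed through the higher group. In Gjd2 Car2 and Mafa Slc17a8 cells the lowest mouse, a control, was at 91.1 and 98.6 plain CPM. There Slc32a1 would not have passed the filter by the controls alone, and with no filter both calls were lost. Without 1 mouse the call was lost in Cbln4 Tac1 cells for control 1 (0.51, adjusted p = 0.13) and Phase I ROP 3 (0.63, adjusted p = 0.094), in Ebf3 cells for Phase I ROP 1 (0.86, adjusted p = 0.059), in Mafa Slc17a8 cells for control 2, control 3 and Phase I ROP 3 (1.41 to 1.61, adjusted p of 0.056 to 0.065), and in Gjd2 Car2 cells for any mouse but Phase I ROP 1 (1.01 to 1.15, adjusted p of 0.067 to 0.13). It did not pass in Pou3f3 Pantr1 (1.36, adjusted p = 0.056) or Tfap2e Tshr cells (0.53, adjusted p = 0.23). The share of all tested genes called in these subtypes was 23.2% in Cbln4 Tac1 (10.4% higher), 32.3% in Ebf3 (16.3% higher), 22.7% in Gjd2 Car2 (12.3% higher), 21.3% in Mafa Slc17a8 (11.8% higher), 9.95% in Pou3f3 Pantr1 (7.1% higher) and 14.6% in Tfap2e Tshr cells (7.84% higher). Groups that do not overlap were seen for 40.4%, 47.5%, 40.8% and 39.1% of all tested genes in the first 4 of these.

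The decarboxylase genes were tested where each was high enough. Gad2 rose in Cbln4 Tac1 cells, from 217, 267 and 248 to 618, 421 and 448 normalised CPM (log2 fold change 1.03, 95% interval 0.60 to 1.46, adjusted p = 0.0018), while in Ebf3 cells it overlapped between groups (139, 106 and 167 against 112, 131 and 115, log2 fold change -0.21, adjusted p = 0.66). Whether changes differ between subtypes, or between Gad1 and Gad2, was not tested. Gad1 rose in Pou3f3 Pantr1 cells, from 5120.0, 3932 and 3851 to 8501, 11316 and 10096 (1.21, adjusted p = 0.028), and in Tfap2e Tshr cells, from 1822, 2012 and 1905 to 2932, 3771 and 3328 (0.81, adjusted p = 0.030). The first call was lost without any 1 control or without Phase I ROP 3 (1.04 to 1.28, adjusted p of 0.077 to 0.17), and the second without any 1 mouse but Phase I ROP 1 (0.71 to 0.79, adjusted p of 0.065 to 0.16). The second was also lost with no filter on low counts (adjusted p = 0.38), with all 4 groups in 1 fit (adjusted p = 0.054), with the replicate block (adjusted p = 0.068) and when the members were kept in the clustering (adjusted p = 0.064). In Cbln4 Tac1 cells, which held more Gad1 UMIs than any other subtype, the change of 0.39 did not pass (adjusted p = 0.092).

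Of the transporters, Slc6a9 rose in 2 of the 3 subtypes in which it could be tested. In Ebf3 cells it went from 216, 235 and 208 to 456, 807 and 405 normalised CPM (log2 fold change 1.30, 0.75 to 1.84, adjusted p = 0.0020), and in Gjd2 Car2 cells from 1392, 1387 and 918 to 2768, 2489 and 1718 (0.91, adjusted p = 0.0070), the latter lost without control 3 (0.71, adjusted p = 0.058). In Mafa Slc17a8 cells it overlapped between groups (247, 793 and 548 against 806, 573 and 898, adjusted p = 0.33). Slc6a11 rose in Cbln4 Tac1 cells, from 89.5, 76.2 and 118 to 209, 206 and 217 (1.17, adjusted p = 0.0055), whereas in Tfap2e Tshr cells, its main amacrine site, 1 Phase I ROP mouse lay within the control range (619, 486 and 547 against 977, 1040.3 and 499, log2 fold change 0.63, adjusted p = 0.15).

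**Figure D4:**
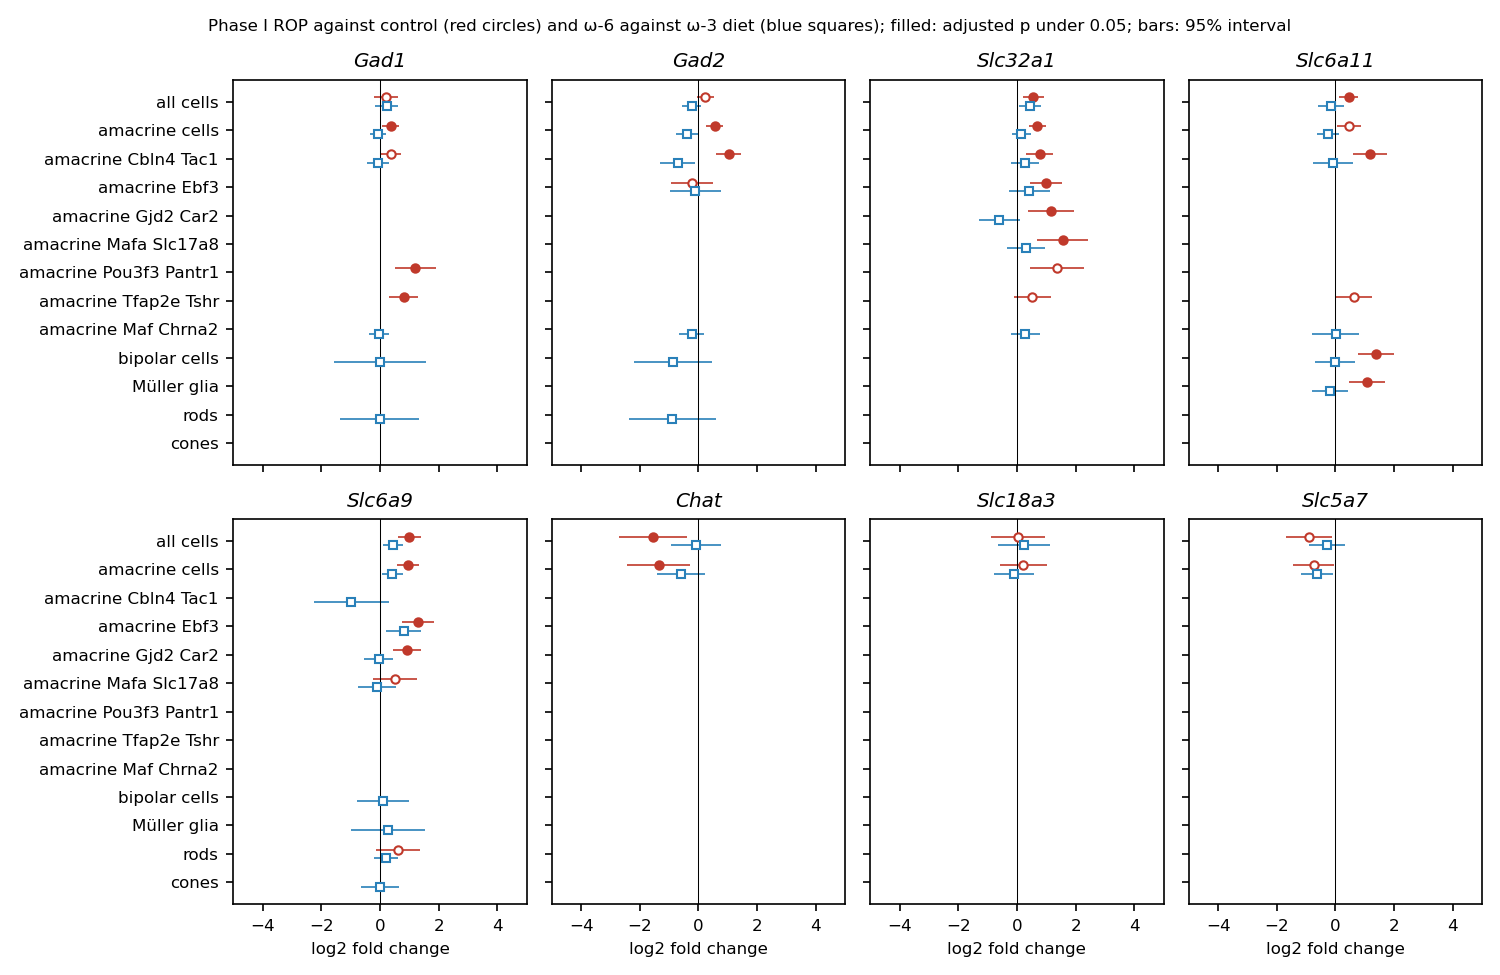
Log2 fold change of each member with its 95% interval (edgeR) in each class or subtype tested, for Phase I ROP vs. control and for the ω-6 vs. the ω-3 diet, with filled points for an adjusted p under 0.05. In the Phase I ROP comparison the filled points lie to the right of 0 for all genes but Chat, and there are none in the diet comparison.

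Outside amacrine cells, Slc6a11 was the member that could be tested in glia and bipolar cells in this comparison. In bipolar cells it was at 25.3, 23.2 and 25.5 normalised CPM in controls and 67.1, 77.1 and 51.3 in Phase I ROP, a log2 fold change of 1.38 (0.78 to 1.99, adjusted p = 0.0013), in a class where 45.3% of genes were called (21.6% higher) and 55.2% did not overlap between groups. Both kinds of bipolar cell showed the difference in plain CPM, with 67.3, 65.6 and 58.3 against 145, 222 and 139.7 in Grik1 bipolar cells, and 6.17, 7.50 and 8.15 against 47.8, 35.3 and 30.3 in Trpm1 bipolar cells. The groups did not overlap in either. In Müller glia it went from 137, 112 and 69.9 to 213, 239 and 203 normalised CPM (1.07, 0.45 to 1.69, adjusted p = 0.030), in a class where 11% of genes were called (5.85% higher), and this call was lost without any 1 mouse but control 1 (0.77 to 1.12, adjusted p of 0.054 to 0.12). Summed astrocyte markers, the class highest in Slc6a11, were at 32.2 to 44.4 CPM in bipolar cells of controls and 37.9 to 69.0 CPM in those of Phase I ROP, with 2 of the 6 at 0, and at 925 to 1243 and 968 to 1798 CPM in Müller glia, with 1 of the 6 at 0. Summed Müller glia markers in bipolar cells were at 153 to 241 and 237 to 289 CPM, and summed rod markers rose in both classes. Their part in the result was not tested. Slc6a9 in rods, where 39.7% of genes were called, did not pass (28.8, 24.3 and 50.5 against 57.6, 60.9 and 50.4, log2 fold change 0.61, adjusted p = 0.19).

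In the sum over all cells, which also follows how many amacrine cells each library held, Slc32a1 (log2 fold change 0.56, adjusted p = 0.017), Slc6a11 (0.45, adjusted p = 0.026) and Slc6a9 (1.00, adjusted p = 0.00068) were higher in Phase I ROP and Chat was lower (-1.56, adjusted p = 0.029), where 48.1% of 15964 genes were called (24.7% higher, 23.4% lower). Of these only the call of Slc6a9 held without any 1 mouse: that of Slc32a1 was lost without control 1, control 3, Phase I ROP 2 or Phase I ROP 3 (0.41 to 0.55), that of Slc6a11 without control 2, Phase I ROP 1 or Phase I ROP 2 (0.36 to 0.46), with DESeq2 (adjusted p = 0.071) or without the cells scoring highest for doublets (adjusted p = 0.069), and that of Chat without control 2 (-0.56, adjusted p = 0.25), Phase I ROP 1 (-1.49) or Phase I ROP 2 (-1.37). Gad1 (0.21, adjusted p = 0.37), Gad2 (0.24, adjusted p = 0.14), Slc5a7 (-0.89, adjusted p = 0.059) and Slc18a3 (0.03, adjusted p = 0.96) did not pass, although Slc5a7 did with the replicate block (-0.87, adjusted p = 0.033) and without control 1, control 3 or Phase I ROP 3 (-1.06 to -1.22). Amacrine cells made up 15.8% ± 1.64 (SD, n = 3) of cells in Phase I ROP and 23.8% ± 5.41 (n = 3) in controls, a difference that did not pass a two-sided exact permutation test (p = 0.2, where 3 mice against 3 cannot go below 0.1). Among amacrine cells the Ebf3 share was 26.4% in Phase I ROP and 38.0% in controls, and the Mafa Slc17a8 share 14.3% and 5.72%, each with no overlap between mice (exact permutation p = 0.1). The same held for Cartpt Slc35d3 (0.980% and 2.21%), Htr2c Gbx2 (1.70% and 0.811%) and the other amacrine cells outside the subtypes (0.527% and 2.65%). These rest on few cells. Cartpt Slc35d3 cells numbered 2, 2 and 5 in Phase I ROP and 6, 4 and 6 in controls. Htr2c Gbx2 cells numbered 5, 5 and 5 against 2, 1 and 3. Without the cells scoring highest for doublets the Htr2c Gbx2 shares overlapped (exact permutation p = 0.2). The remaining subtypes overlapped. The starburst-like share was 4.56% and 3.96% (exact permutation p = 0.8).

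The share of amacrine cells with a UMI was compared after thinning each cell to 750 UMIs, since Phase I ROP cells were shallower (median 2231.5 to 2786 UMIs per amacrine cell against 2860 to 3796 in controls). Thinning left out 53 cells of Phase I ROP and 11 of control. Slc32a1 was then seen in 21.3% ± 2.80 of Phase I ROP cells and 9.89% ± 2.83 of control cells (SD, n = 3 mice each), Gad2 in 12.3% ± 2.66 and 5.97% ± 1.49, and Slc6a9 in 16.7% ± 2.67 and 10.1% ± 1.07. For each of these the mice of the groups did not overlap, with or without thinning. Of the 2878 genes seen in at least 5% of thinned cells 51.7% did not overlap, and 31.7% had every Phase I ROP mouse above every control, so non-overlap was common. For the 3 members the two-sided exact permutation p was 0.1, the smallest that 3 against 3 can give. Gad1 was seen in 31.3% ± 5.05 and 23.6% ± 1.43 of thinned cells (exact permutation p = 0.1), but in 42.4% and 41.0% of cells without thinning (p = 0.8). The shares of Slc6a11, Chat, Slc18a3, Slc5a7 and Th overlapped between groups.

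The other genes of these pathways were taken as whole lists. Of 18 tested genes for GABA and glycine uptake, breakdown and release, 6 were higher and 1 was lower in amacrine cells of Phase I ROP, with a median log2 fold change of 0.16. These counts stand beside 39.2% of all genes called in amacrine cells (18.3% higher, 20.8% lower) and a median of 0.02, so the share called in the list was near that of all genes. They included Slc38a2 (1.39), a neutral amino acid transporter, Sv2a (1.22), a synaptic vesicle protein, and Gphn (0.80), the scaffold of inhibitory synapses, while Amt of the glycine cleavage system fell by 0.94. Slc6a5, the glycine transporter GlyT2 of glycine neurons, did not pass (0.53, adjusted p = 0.23). None of the 6 tested acetylcholine genes passed, among them Ache, the enzyme that breaks acetylcholine down (0.65, adjusted p = 0.11). Of 7 tested genes for dopamine and other monoamines 2 were lower, among them Pts (-0.81), for the cofactor of tyrosine hydroxylase, whereas Slc18a2, the vesicular monoamine transporter, did not pass (0.91, adjusted p = 0.10) and Ddc, the decarboxylase after tyrosine hydroxylase, was too low to test. In the comparison list of glutamate transporters 2 of 5 were higher, Slc1a2 (1.43) and Slc17a8 (1.00). Slc6a3 had no row in the single-cell table.

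Over all cells 7 genes of the GABA and glycine list were higher and 2 lower of 23 tested, 4 higher and 1 lower of 8 for acetylcholine, 0 higher and 4 lower of 10 for monoamines, and 2 higher and 1 lower of 7 for glutamate, where 24.7% of all genes were called higher and 23.4% lower. The share called in the first list was below that of all genes. The largest increases were those of Slc38a2 (1.84), Gldc of glycine cleavage (1.46) and Sv2a (1.14) in the first list, and Slc44a1, a choline transporter (1.15), Acly, which supplies acetyl-CoA (0.75), and Chka, a choline kinase (0.55), in the second. The decreases were Dld (-0.93) and Amt (-0.80) in the first list, Slc44a2 (-1.69) in the second, and Pts (-0.95) and Maoa (-0.62) among the monoamine genes. Among glutamate transporters Slc1a2 (1.15) and Slc17a7 (1.00), the vesicular transporter of photoreceptors and bipolar cells, rose and Slc17a6 (-1.52), that of ganglion cells, fell. Summed rod markers were at 1481 to 3224 CPM in controls and 9752 to 13603 CPM in Phase I ROP over all cells, so the make-up of the libraries moved with these counts, and its part was not tested. Slc6a5 (0.11, adjusted p = 0.78), Ache (-0.19, adjusted p = 0.50), Ddc (-0.56, adjusted p = 0.37) and Slc18a2 (0.61, adjusted p = 0.18) did not pass over all cells.

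The diets were compared in the 5 STZ littermates (ω-6 less ω-3) to ask whether fatty acid supply altered these genes in Phase I ROP. None of the members passed the edgeR test in amacrine cells, in all cells or in any other class or subtype tested, and DESeq2 called none of those to which it gave an adjusted p, which it did not give for 5 members over all cells and 3 in rods. At an unadjusted p under 0.05 there were 2 members in amacrine cells, 2 in all cells, and 2 results in subtypes. In amacrine cells, in all cells and in the classes and subtypes not listed next 0% of all genes were called, and 0.0159% in rods, 0.015% in Cbln4 Tac1 cells, 0.061% in Ebf3 cells and 0.116% in Maf Chrna2 cells. Of the transmitter lists no gene was called in amacrine cells or in all cells.

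The values nearest to a difference were again those of Slc6a9. In amacrine cells it was at 151 and 212 normalised CPM with ω-3 and 226, 253 and 253 with ω-6 (log2 fold change 0.42, 95% interval 0.06 to 0.78, unadjusted p = 0.024, adjusted p = 0.49 by edgeR), and the groups did not overlap. In Ebf3 cells it was at 237 and 284 with ω-3 and 358, 500.3 and 527 with ω-6 (0.82, unadjusted p = 0.0091, adjusted p = 0.86). In Cbln4 Tac1 cells Gad2 was at 313 and 348 with ω-3 and 229, 255 and 119 with ω-6 (-0.71, unadjusted p = 0.024, adjusted p = 0.68). Slc5a7 was at 54.0 and 63.1 with ω-3 and 30.7, 48.3 and 32.4 with ω-6 in amacrine cells, also without overlap (-0.64, unadjusted p = 0.025, adjusted p = 0.49). Non-overlap was seen for 27.8% of all genes tested in amacrine cells in this comparison.

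The intervals of the other members give the sizes that these 5 mice leave possible in amacrine cells. For Gad1, at 915 and 1112 normalised CPM with ω-3 and 887, 996 and 1042 with ω-6, the log2 difference was -0.06 (-0.33 to 0.22). Gad2, at 190.3 and 240.2 against 192, 170.4 and 136, gave -0.37 (-0.75 to 0.00, unadjusted p = 0.052), and Slc32a1 gave 0.16 (-0.16 to 0.47). The intervals were wider for Slc6a11 (-0.61 to 0.11), Chat (-1.42 to 0.21) and Slc18a3 (-0.77 to 0.59), so that a log2 difference of -1 lay outside the interval of Slc6a11 and inside that of Chat. Over all cells Slc32a1 (0.44, unadjusted p = 0.030) and Slc6a9 (0.43, unadjusted p = 0.018) were the only members below an unadjusted 0.05, both at an adjusted p of 0.68. Amacrine cells made up 14.8% ± 1.70 (SD, n = 3) of cells with ω-6 and 11.2% ± 1.43 (n = 2) with ω-3 (exact permutation p = 0.2, the smallest that 3 against 2 can give).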

How the data were processed

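The files hold raw UMI counts per gene and cell, deposited by the authors and not normalised. Whole retinas without pigment epithelium had been dissociated with papain, barcoded by inDrop and assigned to mouse transcripts with Rapmap within bcbio-nextgen (GRCm38, mm10; GRCm38.p6 and mm10 per the submitters' processing notes). Coordinates were taken from GENCODE M21, in which 24467 of the 25311 gene names (96.7%) were found. The members and gene lists were chosen with earlier results of these data known.

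Cells with more than 300 genes and genes in more than 10 cells were kept, 2000 variable genes less the members and transmitter lists gave 75 principal components, and Seurat 5.3.0 clustered the cells at a resolution of 0.2, after the study's settings. Amacrine clusters were divided again, also without dissociation response and mitochondrial genes (30 components, resolution 0.4). A sub-cluster of 184 cells with rod markers (1 control, 49 Phase I ROP, 65 ω-3 and 69 ω-6 cells) was left unnamed. Scrublet called 0.359% of cells doublets, too few to rely on, so all cells were kept and the 990 cells scoring highest were left out as an alternative.

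The mouse was the replicate. The study's test over cells (MAST) was not used, since cells of 1 mouse are not replicates. UMI sums per mouse were tested with edgeR 4.0.16 (quasi-likelihood, TMM scaling, filterByExpr) in classes with at least 10 cells in every mouse, within each set of littermates, with Benjamini-Hochberg adjustment over all genes tested and a threshold of 0.05. Mice of 1 group differed beyond sampling noise (chi-square per degree of freedom 4.46 to 12.8). Shares were compared by two-sided exact permutation tests over mice, and limits for a count of 0 cover counting error only.

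Named were all 9 members, with the counts of each transmitter list and at most 3 of its largest called genes in each direction. Slc6a5, Ache, Ddc, Slc18a2 and Slc6a3 were named whatever their values, as were the 3 genes most alike in pattern to each member, and marker and dissociation genes were treated as whole lists. Some genes that this rule covers are not reported here. Ccdc24, Fosb and Rn7sk were named after their values were seen. Alternatives were DESeq2 1.42.0, RLE scaling, no filter on low counts, more than 500 genes per cell, thinned sums, all 4 groups in 1 fit, a replicate block, clustering with the members, leaving out each mouse and, chosen after seeing the data, counting the rod-marked sub-cluster as amacrine.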

Additional observations from a re-analysis of the deposited data

How the results depend on the processing

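In amacrine cells of Phase I ROP the calls of Gad2, Slc32a1 and Slc6a9 held under every alternative and without any 1 mouse (adjusted p up to 0.026, 0.0081 and 0.0096 by edgeR or DESeq2), as did those of Slc6a9 over all cells and in Ebf3 cells, of Slc6a11 in bipolar and Cbln4 Tac1 cells, and of Gad2 in Cbln4 Tac1 cells. Over the 21 called results 251 alternatives kept the call and 64 lost it, none with a change of sign. Without 1 mouse the number of members called ranged from 1 to 4 over all cells, 3 to 5 in amacrine cells, 5 to 10 in the subtypes and 1 to 3 in other classes. With no filter on low counts there were 4 calls in the subtypes and 5 in other classes, and with DESeq2 there was 1 in other classes. The cause was not tested. DESeq2 also lost Slc32a1 in Cbln4 Tac1, Gjd2 Car2 and Mafa Slc17a8 cells (adjusted p of 0.056 to 0.11) and Slc6a11 in Müller glia (0.076), no filter lost Slc32a1 in Ebf3, Gjd2 Car2 and Mafa Slc17a8 cells, Slc6a9 in Gjd2 Car2 cells and Gad1 in Pou3f3 Pantr1 cells (0.053 to 0.23), and 1 fit of all 4 groups lost Slc32a1 in Gjd2 Car2 cells (0.063). Gad1 in amacrine cells also missed the threshold with DESeq2, with thinned sums and with the rod-marked sub-cluster.

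Replicate numbers were not treated as pairs, since same-numbered mice did not all deviate together (correlations -0.03, 0.14 and 0.17 over 10493 genes for Phase I ROP and control, and 0.07 and 0.37 for the diets). With the replicate block, Chat in amacrine cells (adjusted p = 0.072) and Gad1 in Tfap2e Tshr cells (adjusted p = 0.068) lost their calls, Slc5a7 passed as lower over all cells (adjusted p = 0.033) and in amacrine cells (adjusted p = 0.044), and no other call changed.

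Of the results in all cells and in amacrine cells, 23 missed the threshold in the main test. They passed it in 12 alternatives, all of them of Slc5a7 or Slc6a11 in Phase I ROP, and changed sign in 15. Results that missed it in subtypes and other classes are not in this count. Slc18a3 in Phase I ROP over all cells was at -0.0015 with DESeq2, -0.15 with thinned sums and -0.24 to 0.68 without 1 mouse, and in amacrine cells at -0.12 to 0.70 without 1 mouse. In the diet comparison, values without 1 mouse ran from -0.45 to 0.20 for Chat and -0.054 to 0.62 for Slc18a3 over all cells, and from -0.18 to 0.10 for Gad1 and -0.41 to 0.33 for Slc18a3 in amacrine cells. Gad1 was at 0.0078 there with the rod-marked sub-cluster. Without thinning, the differences in the share of amacrine cells with a UMI were -0.25 percentage points for Slc5a7 and -0.072 for Th in Phase I ROP and 0.10 for Slc18a3 with the ω-6 diet. With thinning, the diets did not overlap for Slc6a9 (higher with ω-6) and Slc5a7 (lower). Without it, they did not overlap for Gad1, Gad2, Chat and Slc5a7, all lower with ω-6. Only Slc5a7 was thus in both sets. The share of all genes with such non-overlap was not computed, so these sets have no background. For levels in amacrine cells it was 27.8%. Controls had fewer cells (787 to 1493 per mouse) than Phase I ROP mice (1397 to 2312), and low genes such as Th were limited by depth.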
